A study of Mus musculus with 6 samples.

Results

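The genes described here are the 10 genes of the NHS family and the WAVE complex, read from 6 RNA-seq libraries of the murine lung cancer cell line 889. They were taken by name from the gene column of the count table, which lists 34745 genes: C77080, Nhs, Nhsl1 and Nhsl2 of the NHS family, and Wasf1, Wasf2, Abi1, Cyfip1, Nckap1 and Brk1 of the WAVE complex. C77080 is the mouse gene for KIAA1522, the target of the sgRNA. All 6 libraries come from 889 cells of strain C57BL/6, a tumour line of mouse lung, and no drug treatment is given for any of them. By the labels, the cells of 3 libraries (sg-con) carried the control sgRNA and those of the other 3 (sg-kiaa1522) the sgRNA against kiaa1522. In the methods of the study, guides to kiaa1522 were delivered with Cas9 by lentivirus and the control guide was directed at EGFP, and which guide the sg-kiaa1522 libraries carried, or whether these cells were a pool or a clone, is not given in the sources used here. Both groups come from the same line, so the comparison is of this line and not of independent tumours. The labels do not say whether the replicates were separate cultures, so the p-values measure the spread between these libraries, which may be technical.

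As background, the WAVE complex is a cytoplasmic assembly of 5 kinds of subunit: a WASF (WAVE) protein, an ABI protein, a CYFIP protein, NCKAP1 and the small protein BRK1. Active RAC binds CYFIP within the complex and frees the end of the WASF protein that switches on the Arp2/3 complex, which then nucleates branched actin filaments at the leading edge of lamellipodia. NHS family proteins are large actin regulators that share an N-terminal region resembling that of WASF proteins, and they bind subunits of the WAVE complex. NHS itself is the gene mutated in Nance-Horan syndrome, and the human gene KIAA1522 is now also named NHSL3. In epithelial tumour cells the complex is known for its part in protrusion, spreading and cell-cell junctions.

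The libraries held between 12220001 and 18609376 counts, the fewest in sg-kiaa1522 replicate 1. A count of 3 corresponded to between 0.161 and 0.246 CPM (counts scaled to library size) in these libraries, and such floors and the counting intervals below cover counting error only. Of the 10 genes, 7 had more than 500 counts over the 6 libraries and were tested among 10046 genes with edgeR's quasi-likelihood test. A gene is said to have passed the test at a Benjamini-Hochberg adjusted p of at most 0.05, and to have passed the full threshold if its log2 fold change was also at least 1 in size. Nhs, Nhsl1 and Nhsl2 were below the count filter and are given by their counts. As a check of the label, keratin genes of epithelial cells were abundant, and the 12 lung epithelial and adenocarcinoma markers summed to between 3873 and 4596 CPM in sg-con and between 3260 and 3505 CPM in sg-kiaa1522, while Epcam was at 0 in all 6 libraries. Krt8, Krt18 and Krt19 made up most of this sum, 6 of the 12 markers had more than 500 counts, Cldn4 and Cldn7 were at or near 0, and Napsa, Muc1 and Sftpc were at most 6.28 CPM. Cdh1, the E-cadherin gene, fell by 1.45, Krt19 by 0.73 and Sftpb by 0.67 on the log2 scale in sg-kiaa1522. Krt8 fell by 0.40 and Krt18 by 0.19, with adjusted p of 0.0046 and 0.04955 in edgeR's test. Nkx2-1 had 55.4, 58.8 and 13.55 CPM in sg-con and 10.8, 9.45 and 39.3 CPM in sg-kiaa1522. Replicate 3 thus stood apart in both groups for Nkx2-1, whose adjusted p was 0.21 in edgeR's test. The summed fibroblast and smooth muscle markers, of which 2 of 9 had more than 500 counts, lay between 464 and 484 CPM in sg-con and between 166 and 197 CPM in sg-kiaa1522. Col1a2 carried most of this, at 417 to 431 CPM against 142 to 161 CPM, with Pdgfrb next, while Col3a1, Pdgfra, Dcn, Lum, Thy1 and Acta2 were at or near 0. The 8 leukocyte markers summed to between 2.36 and 6.00 CPM in sg-con and between 11.2 and 13.9 CPM in sg-kiaa1522, with Adgre1 and Cd3e at 0 in every library. Of these markers Cd68 alone was higher in every sg-kiaa1522 library, at up to 12.8 CPM against at most 1.24 CPM in sg-con, while Lyz2 and Ptprc were not and Csf1r was at 0 there. The 6 endothelial markers summed to between 3.64 and 5.54 CPM in sg-con and between 9.44 and 11.7 CPM in sg-kiaa1522, a difference carried by Vwf, at 2.39 to 3.77 CPM against 8.44 to 10.5 CPM. Cdh5 was at 0 in the sg-kiaa1522 libraries, and Pecam1, Kdr, Tie1 and Tek overlapped between the groups. The part of these differences in the results below was not tested. In bulk RNA, fewer cells of a type and less RNA per cell cannot be told apart.

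The promoter windows of the genes that passed the test are shown first, since their RNA differed between the groups. RefSeq windows on GRCm38.p6, from 250 bases before to 50 bases after an annotated start, were found for 7 of the 10 genes, with 12 windows in all, and none was matched for Cyfip1, Nckap1 or Nhsl2. They were searched on both strands, overlapping matches included, for the AP-1 motif TGANTCA, the GC box GGGCGG, the NRF1 motif (GCGC on either side of an A and any base), TATAAA and the NF-kappaB consensus, and the motifs were chosen with the windows in view. In the sequences below, capitals mark matches to these motifs. The first window of C77080 (minus strand, chr4:129261355-129261654) and its second, at an inner start (minus strand, chr4:129248394-129248693), are set side by side because they differ most in composition among its 4 windows, and the windows of Wasf2 (plus strand, chr4:133130383-133130682) and Brk1 (plus strand, chr6:113604522-113604821) follow.
C77080, first start: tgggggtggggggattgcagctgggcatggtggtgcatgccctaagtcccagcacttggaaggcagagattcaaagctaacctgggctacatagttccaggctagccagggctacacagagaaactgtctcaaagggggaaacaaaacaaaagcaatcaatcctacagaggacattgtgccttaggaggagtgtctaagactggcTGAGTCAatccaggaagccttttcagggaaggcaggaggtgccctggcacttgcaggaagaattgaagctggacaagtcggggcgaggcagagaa
C77080, second start: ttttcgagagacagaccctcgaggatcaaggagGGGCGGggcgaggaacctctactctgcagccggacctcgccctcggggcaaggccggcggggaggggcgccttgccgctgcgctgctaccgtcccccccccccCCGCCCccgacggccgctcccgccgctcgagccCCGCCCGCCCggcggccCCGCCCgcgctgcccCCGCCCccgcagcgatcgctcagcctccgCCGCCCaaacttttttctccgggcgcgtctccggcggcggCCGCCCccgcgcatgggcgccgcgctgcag
Wasf2: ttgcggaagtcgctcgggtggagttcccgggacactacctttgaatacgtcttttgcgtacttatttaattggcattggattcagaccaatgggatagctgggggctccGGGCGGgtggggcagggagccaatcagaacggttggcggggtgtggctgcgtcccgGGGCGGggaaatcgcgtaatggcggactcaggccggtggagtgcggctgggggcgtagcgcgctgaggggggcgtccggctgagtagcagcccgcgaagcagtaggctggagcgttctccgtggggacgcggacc
Brk1: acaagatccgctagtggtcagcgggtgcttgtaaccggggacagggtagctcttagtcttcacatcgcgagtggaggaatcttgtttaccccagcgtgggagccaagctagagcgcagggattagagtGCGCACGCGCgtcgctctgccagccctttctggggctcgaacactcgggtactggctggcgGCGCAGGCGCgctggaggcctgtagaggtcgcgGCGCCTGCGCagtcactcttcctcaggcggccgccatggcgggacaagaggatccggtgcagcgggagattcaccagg
The first window of C77080 held 2 CpG dinucleotides and 1 AP-1 match, 45 bases before the start, a motif found in 7.81% of all 32851 windows. Its second window was 78.3% G and C, with 45 CpG dinucleotides, against a median of 52.7% and 7 over all windows, and it held 8 GC boxes, a motif present in 35.7% of windows. The other 2 windows of C77080 lay between, at 71.3% and 59.3% G and C with 4 and 1 GC boxes. The Wasf2 window held 2 GC boxes, and that of Brk1 held 3 NRF1 matches, a motif in 4.60% of windows. Of the members that did not pass the test, Abi1 had 3 overlapping NF-kappaB matches in each of its overlapping windows, at the same stretch. The NF-kappaB motif was present in 8.46% of all windows. TATAAA, present in 13.6% of all windows, occurred in none of the 12. A match is a run of letters and not a measured binding site, and counts per gene do not show which start a transcript used.

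C77080 (ENSMUSG00000050390, chr4:129219578-129261404, minus strand, GRCm38) had higher RNA in the libraries labelled sg-kiaa1522 than in sg-con. The label names a guide against this gene and gives no direction for its RNA. The sg-con libraries held 127, 129 and 123 CPM, from 2214, 2404 and 2064 counts. The libraries labelled sg-kiaa1522 held 209, 202 and 215 CPM, from 2554, 3726 and 3667 counts. The 3 values of each group lay close together and the groups did not overlap. The mean level rose to 209 ± 6.35 CPM from 126 ± 2.92 CPM in sg-con (SD, n = 3). By edgeR this was a log2 fold change of 0.73 ± 0.057 (SE, 95% interval 0.59 to 0.86), at an adjusted p of 9.1e-05. Leaving out any of the 6 libraries kept it between 0.71 and 0.75. The change did not pass the full threshold, and 15.7% of tested genes had a log2 fold change at least as large in size. The count is over the whole gene, so it measures neither an edit at the cut site nor the protein, and the counts of this gene alone do not show whether the labels are right. In the rest of the text sg-kiaa1522 means the libraries so labelled. The plot of levels by library shows this separation beside the other 9 genes.

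**Figure D1:**
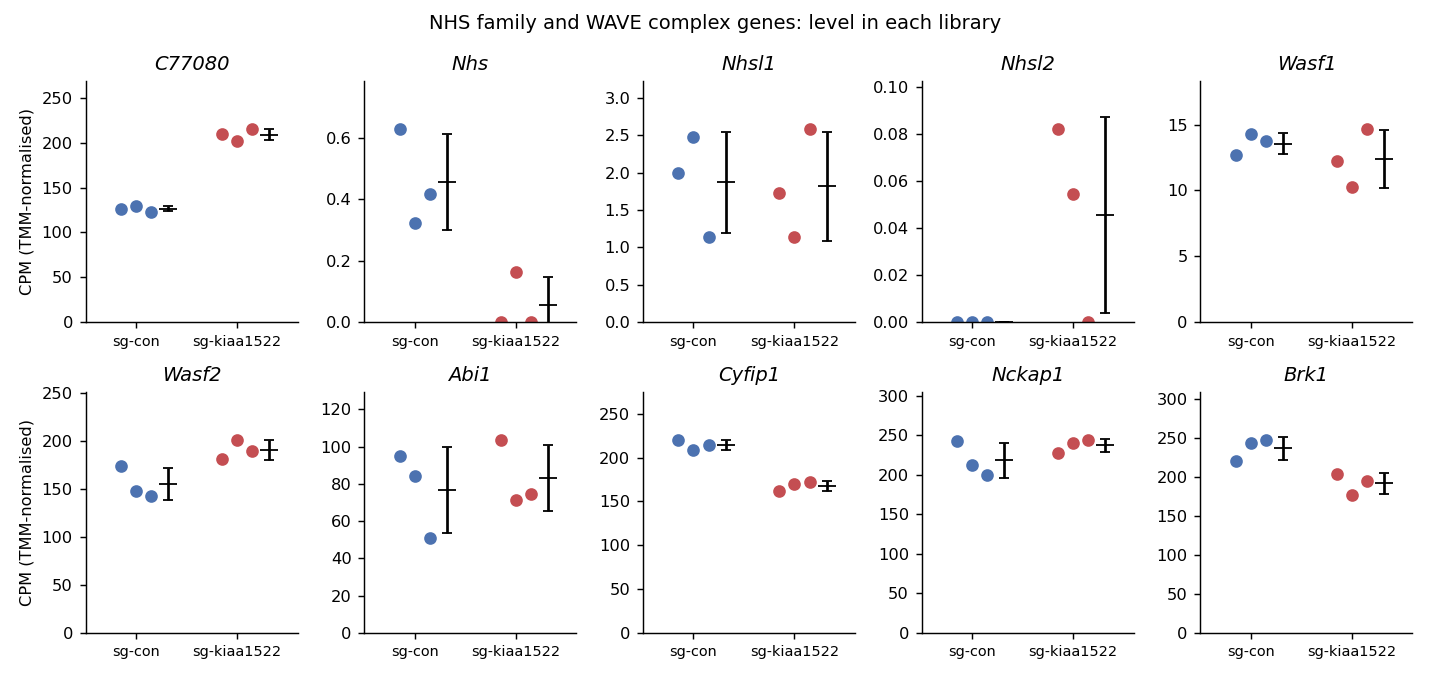
CPM (linear axes from 0, scaled per gene) of each of the 10 genes in the 3 sg-con (blue) and 3 sg-kiaa1522 (red) libraries, in the order of replicates 1 to 3, with the mean and SD in black beside them. C77080 lies between 123 and 129 CPM in sg-con and between 202 and 215 CPM in sg-kiaa1522, while Wasf1, Abi1, Nckap1 and Nhsl1 overlap between the groups.

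The other 3 NHS family genes were nearly silent beside C77080. Nhs (chrX:161833296-162159730, minus strand) had 11, 6 and 7 counts in sg-con and 0, 3 and 0 counts in sg-kiaa1522, or 0.628, 0.322 and 0.418 CPM against 0, 0.163 and 0 CPM. Every sg-con library was above every sg-kiaa1522 library. The ratio of the summed counts, 24 against 3, was 7.29 in favour of sg-con after the library sizes were allowed for, with a 95% counting interval of 2.21 to 37.8, and the two-sided exact permutation test over libraries gave p = 0.10, the smallest that 3 against 3 allows. When all 18499 genes with at least 1 count were fitted, edgeR gave Nhs an adjusted p of 0.038, where 16.8% of genes passed the test as lower. Its level was near the floor of 3 counts per library, so the size of this difference is not well measured at this depth.

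Nhsl1 (chr10:18318985-18533892, plus strand), a paralog linked to cell migration, had 35, 46 and 19 counts in sg-con and 21, 21 and 44 counts in sg-kiaa1522. These are 2.00, 2.47 and 1.13 CPM against 1.72, 1.14 and 2.58 CPM, and the groups overlapped, with a ratio of summed counts of 1.06 and a counting interval of 0.786 to 1.43. Nhsl2 (chrX:101849385-102092055, plus strand) had no count in sg-con and 1, 1 and 0 counts in sg-kiaa1522, at or under the floor in both groups. Of the summed level per exon length of the 4 family genes, C77080 held 99.0% ± 0.251 in sg-con and 99.5% ± 0.132 in sg-kiaa1522 (SD, n = 3). The groups did not overlap in this share, with an exact permutation p of 0.10 and 0.35 after Benjamini-Hochberg adjustment over the 14 shares tested.

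Of the 6 WAVE complex genes, 3 passed the test, Wasf2 as higher and Cyfip1 and Brk1 as lower in sg-kiaa1522, and Wasf1, Abi1 and Nckap1 did not. With C77080, 4 of the 7 tested genes passed, 2 in each direction. Over all tested genes 52.5% passed, 26.3% as lower and 26.3% as higher in sg-kiaa1522, so a share of this size is near the background. By edgeR, 0 of the 7 passed the full threshold, which 7.08% of tested genes did. With DESeq2 the number was also 0, and 4 of the 7 had an unadjusted p under 0.05 in edgeR. The same 4 genes had groups that did not overlap, against 61.7% of tested genes.

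CYFIP1 is the subunit that binds active RAC. Cyfip1 (chr7:55841745-55932602, plus strand) had 220, 209 and 215 CPM in sg-con and 162, 170 and 173 CPM in sg-kiaa1522. All 3 sg-kiaa1522 libraries were below the lowest sg-con library. The mean level fell to 168 ± 5.67 CPM from 215 ± 5.62 CPM in sg-con (SD, n = 3). The log2 fold change was -0.35 ± 0.058 (SE, 95% interval -0.49 to -0.22), at an adjusted p of 0.0018 by edgeR. It was the WAVE complex gene with the smallest adjusted p, and the log2 fold change lay between -0.38 and -0.33 when each library was left out. The annotation places exons of Nipa2 on the opposite strand over 1316 of its exon bases, and whether counting used strand is not given in the sources used here.

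BRK1 is the smallest subunit and is needed for the complex to assemble. Brk1 (chr6:113604772-113616951, plus strand) had 220, 243 and 247 CPM in sg-con and 204, 177 and 194 CPM in sg-kiaa1522. The groups did not overlap. The mean level fell to 192 ± 13.5 CPM from 236 ± 14.8 CPM in sg-con (SD, n = 3). By edgeR the log2 fold change was -0.30 ± 0.077 (SE), at an adjusted p of 0.013. Without sg-kiaa1522 replicate 2, the lowest library, the log2 fold change was -0.25 and the adjusted p 0.052.

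WASF2 and WASF1 are the subunits whose end activates Arp2/3. Wasf2 (chr4:133130505-133199756, plus strand) had 174, 149 and 143 CPM in sg-con and 181, 201 and 189 CPM in sg-kiaa1522. The groups did not overlap, but sg-con replicate 1 lay close to the lowest sg-kiaa1522 library. The mean was 155 ± 16.5 CPM in sg-con and 191 ± 10.2 CPM in sg-kiaa1522 (SD, n = 3). The log2 fold change was 0.30 ± 0.088 (SE), at an adjusted p of 0.024 by edgeR. The adjusted p was 0.087 without sg-con replicate 2, 0.072 without sg-con replicate 3, 0.086 without sg-kiaa1522 replicate 2 and 0.062 without sg-kiaa1522 replicate 3, with log2 fold changes between 0.24 and 0.30.

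Wasf1 (chr10:40883475-40938570, plus strand) was the lowest of the WAVE complex genes. It had 12.7, 14.3 and 13.7 CPM in sg-con and 12.2, 10.3 and 14.7 CPM in sg-kiaa1522. The groups overlapped, and the log2 fold change of -0.13 had a 95% interval of -0.47 to 0.21 and an adjusted p of 0.47 in edgeR's test. It was -0.0083 without sg-kiaa1522 replicate 2 and -0.28 without sg-kiaa1522 replicate 3. Wasf3, the remaining paralog and outside the 10 genes, had 1, 2 and 0 counts in sg-con and 6, 5 and 6 counts in sg-kiaa1522. In the fit of 18499 genes its adjusted p was 0.044 by edgeR's test, where 16.7% of genes passed as higher. The ratio of summed counts, sg-con over sg-kiaa1522, was 0.161, with a 95% counting interval of 0.0302 to 0.556. Wasf2 held 83.8% ± 2.09 of the summed WASF level per exon length in sg-con and 87.3% ± 2.28 in sg-kiaa1522 (SD, n = 3), with overlapping groups.

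ABI1 is the adaptor subunit and NCKAP1 the scaffold that pairs with CYFIP1. Abi1 (chr2:22940073-23040241, minus strand) had 95.1, 84.2 and 51.0 CPM in sg-con and 104, 71.1 and 74.7 CPM in sg-kiaa1522. It was the most variable of the tested members within groups, with sg-con replicate 3 low and sg-kiaa1522 replicate 1 high. The log2 fold change was 0.11 with a 95% interval of -0.44 to 0.67 and an adjusted p of 0.72 in edgeR's test, and it turned to -0.12 without sg-con replicate 3 and to -0.07 without sg-kiaa1522 replicate 1. Nckap1 (chr2:80500512-80581380, minus strand) had 242, 212 and 200 CPM in sg-con and 228, 240 and 244 CPM in sg-kiaa1522. The groups overlapped through sg-con replicate 1. Its log2 fold change was 0.12 with a 95% interval of -0.07 to 0.31 and an adjusted p of 0.25 in edgeR's test. Without sg-con replicate 1 the value was 0.19 with an adjusted p of 0.024. Without sg-con replicate 3 it was 0.057 with an adjusted p of 0.59.

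Among the paralogs of these subunits, Abi3 and Abi2 had enough counts to be tested. Abi3 had 6.34, 9.18 and 7.76 CPM in sg-con and 6.07, 4.62 and 4.92 CPM in sg-kiaa1522, a log2 fold change of -0.59 ± 0.18 (SE) with an adjusted p of 0.029 in edgeR's test. The groups did not overlap, but the call was lost without sg-con replicate 3 (adjusted p 0.062), sg-kiaa1522 replicate 2 (0.0996) or sg-kiaa1522 replicate 3 (0.086). Exons of Zfp652 on the opposite strand cover 70.1% of the Abi3 exon length, so its counts are uncertain. Abi2 had 12.3, 7.84 and 8.96 CPM in sg-con and 9.84, 13.9 and 13.8 CPM in sg-kiaa1522, with an adjusted p of 0.16 in edgeR's test and 0.036 without sg-con replicate 1. Cyfip2 and Nckap1l, the paralogs known from neurons and blood cells, had at most 4 and at most 5 counts in any library. Cyfip1 held 99.9% of the CYFIP level and Nckap1 at least 99.9% of the NCKAP1 level per exon length in both groups. Over the 14 shares tested the adjusted exact permutation p was at least 0.35.

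**Figure D2:**
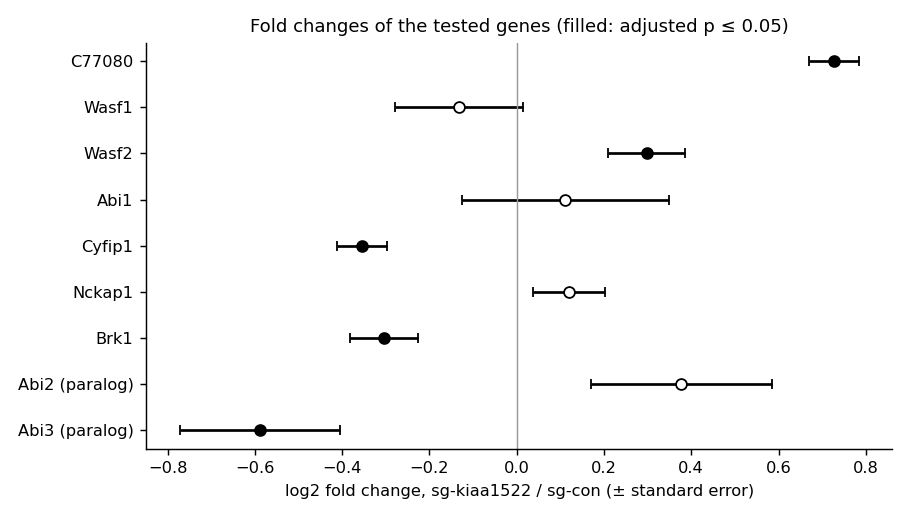
Log2 fold change of sg-kiaa1522 over sg-con (x axis, with its standard error) for the 7 tested members and the tested paralogs Abi2 and Abi3, filled where the adjusted p was at most 0.05 in edgeR's test. C77080 lies farthest to the right at 0.73, Cyfip1 and Brk1 lie at -0.35 and -0.30, and Wasf2 at 0.30.

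**Figure D3:**
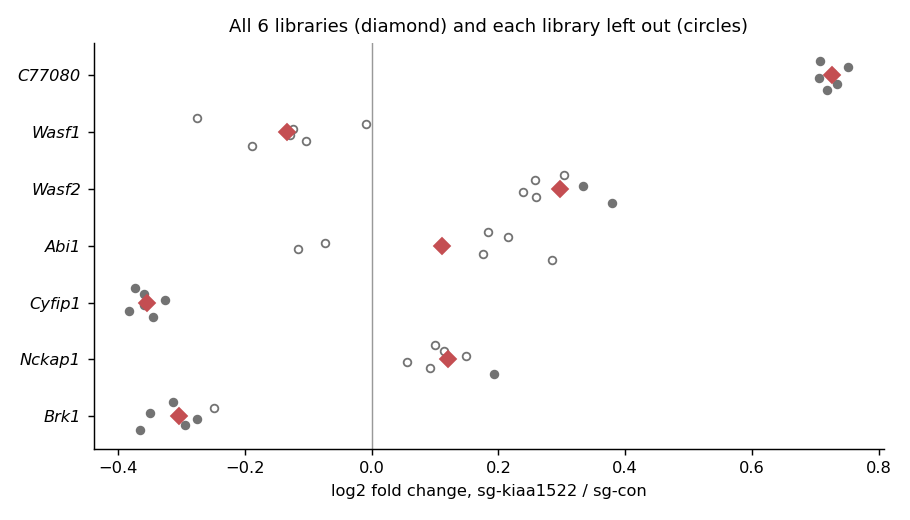
Log2 fold change of each tested member with all 6 libraries (red diamond) and with each library left out in turn (circles, filled where the adjusted p was at most 0.05 in edgeR's test). C77080 stays between 0.71 and 0.75 and Cyfip1 between -0.38 and -0.33, while Abi1 lies on both sides of 0.

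Levels of different genes can be compared only per length, here as CPM per kilobase of summed exon length (FPKM), for which the order is a description with no test. In sg-con the order was Brk1 at 216 ± 13.5, Nckap1 at 44.0 ± 4.40, Wasf2 at 24.8 ± 2.63, C77080 at 21.9 ± 0.506, Abi1 at 19.04 ± 5.70, Cyfip1 at 18.0 ± 0.470 and Wasf1 at 4.75 ± 0.285 FPKM (SD, n = 3). The ranges of C77080 and Abi1 overlapped, as did those of Abi1 and Cyfip1, and the other neighbours in this order were apart. In sg-kiaa1522, C77080 stood at 36.2 ± 1.10 FPKM, above all 3 libraries of Wasf2 at 30.5 ± 1.63 FPKM (SD, n = 3). The NHS family gene targeted in this line was thus present at a level per length between those of the WAVE complex subunits. Brk1 was at the 98.3rd percentile of tested genes and Wasf1 at the 27.0th. With the longest annotated transcript as the length, Cyfip1 stood above Wasf2, at 33.3 FPKM in sg-con.

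**Figure D4:**
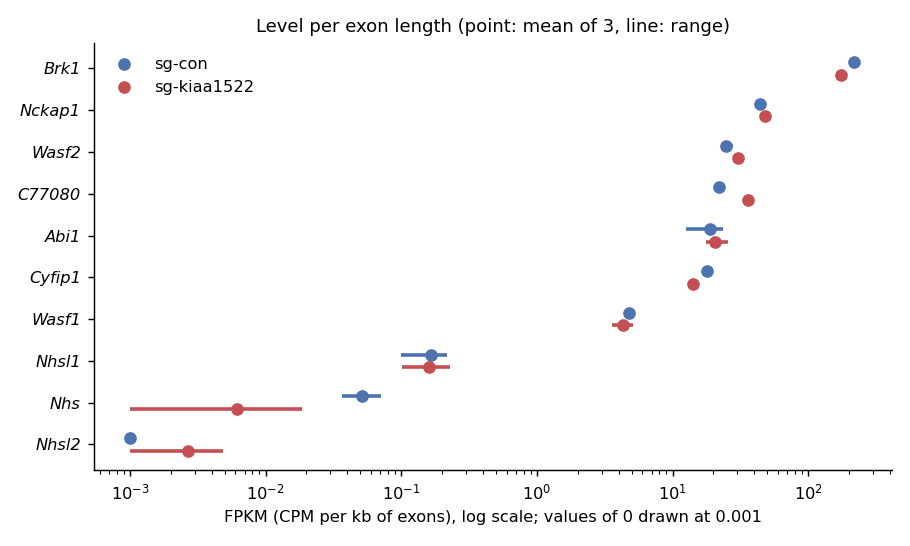
Level per exon length in FPKM (log axis, with values of 0 drawn at 0.001) of the 10 genes in sg-con (blue) and sg-kiaa1522 (red), as the mean of 3 libraries with the range as a line. Brk1 is highest at 216 FPKM in sg-con, and C77080 moves from 21.9 FPKM in sg-con to 36.2 FPKM in sg-kiaa1522.

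The genes beside C77080 on chromosome 4 were taken as the 3 nearest tested genes on each side. Yars, a tRNA synthetase gene whose end shares 30 exon bases with C77080 on the opposite strand, had a log2 fold change of 0.37 with an adjusted p of 0.018 in edgeR's test. Bsdc1 was higher in sg-kiaa1522, with a log2 fold change of 0.54 and an adjusted p of 0.0021, and Zbtb8os was lower, with -0.46 and 0.026. The calls of Yars and Zbtb8os were each lost without sg-con replicate 2 or sg-kiaa1522 replicate 2, among others, with adjusted p up to 0.059 for Yars and 0.084 for Zbtb8os. Rnf19b, S100pbp and Rbbp4 did not pass, with log2 fold changes of 0.27, 0.08 and 0.13. The estimated log2 fold change of C77080 was larger than those of the 6 genes around it, but this difference was not tested. Its 95% interval of 0.59 to 0.86 overlapped that of Bsdc1, 0.33 to 0.75, among others. The median over the 612 tested genes of chromosome 4 was 0.08.

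The genes whose levels over the 6 libraries were most like those of C77080 were taken by the root mean square difference of log2 CPM after centring each gene. They were Kansl2 at 0.013, Ints6 at 0.017, Prrc1 at 0.024, Wfs1 at 0.032 and Sgk1 at 0.036. Their log2 fold changes lay between 0.73 and 0.77, which the choice by likeness to C77080 fixes. The measure rests on 6 libraries in 2 groups, and 10046 genes were searched.

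The Arp2/3 complex, which the WAVE complex activates, had 9 tested genes of 10 listed. Of these, 5 passed the test as lower, 2 as higher and 2 did not pass, where 26.3% of all tested genes passed in each direction. The median log2 fold change was -0.27 against -0.01 over all tested genes. Arpc1a, a subunit with a WD-repeat fold, had 121, 128 and 123 CPM in sg-con and 76.6, 75.3 and 77.7 CPM in sg-kiaa1522. The log2 fold change was -0.70 ± 0.058 (SE) with an adjusted p of 1.1e-04 in edgeR's test, the largest fall of the list. Arpc5l, a form of the ARPC5 subunit, rose by 0.48 on the log2 scale, with an adjusted p of 0.0075. The other genes, chosen after their values were seen, were Actr3, Arpc2, Arpc3, Arpc4 and Actr2. Actr2 rose by 0.28 and the others fell by 0.26 to 0.39 on the log2 scale. Exons of Ttll3 on the same strand cover 12.2% of the Arpc4 exon length. The number of lower genes was 3 without sg-con replicate 2, sg-con replicate 3 or sg-kiaa1522 replicate 2, and that of higher genes was 1 in 5 of the 6 settings that left out a library.

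The list of WASP, WIP and WASH genes holds other activators of Arp2/3 and proteins that bind them. Of its 9 tested genes, 4 passed as higher and none as lower in sg-kiaa1522, against 26.3% of all tested genes in each direction. Wasl and Wash1, named after their values were seen, did not pass (adjusted p 0.50 and 0.13 in edgeR's test). Jmy, an Arp2/3 activator of the WASP superfamily, had 56.5, 44.8 and 41.1 CPM in sg-con and 82.0, 78.6 and 84.2 CPM in sg-kiaa1522, a log2 fold change of 0.78 with an adjusted p of 0.0014 in edgeR's test. Of the 13 tested Rac and Cdc42 GTPases and their activators, 3 passed as higher and 3 as lower, near that background. Sos1, an exchange factor for RAS and RAC, rose by 0.93 and Vav2, an exchange factor for RAC, fell by 0.60 on the log2 scale, with adjusted p of 3.7e-04 and 7.7e-04. Rac1, the GTPase that activates the WAVE complex and a gene chosen after its values were seen, had 167, 182 and 604 CPM in sg-con and 134, 133 and 412 CPM in sg-kiaa1522. Replicate 3 was high in both groups, the adjusted p was 0.53 in edgeR's test, and exons of Daglb on the opposite strand cover 51.4% of its exon length. Among 7 tested inhibitors of RAC and Arp2/3, Arpin, which inhibits Arp2/3, fell by 0.65 and the RAC GTPase-activating gene Arhgap22 rose by 0.50 on the log2 scale, with 1 gene of the list higher and 2 lower, also near that background. Exons of Gm15512 on the opposite strand cover 36.9% of the Arhgap22 exon length.

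The remaining lists covered factors that act on actin filaments beside Arp2/3. Of 11 tested formins, which nucleate unbranched filaments, 4 passed as higher and 4 as lower, where 26.3% of all tested genes passed in each direction, and they held the widest log2 fold changes of the lists. Daam2 fell to 3.44 ± 0.510 CPM from 20.4 ± 1.77 CPM in sg-con (SD, n = 3), by 2.58 on the log2 scale with an adjusted p of 2.7e-05 in edgeR's test. The formin gene Diaph3, listed as Diap3, fell by 1.19, and Fmn1 rose by 1.42 on the log2 scale. Of the 25 tested genes of actin filament turnover, 6 passed as higher and 8 as lower, near the background. Among them Tmsb10, which binds actin monomers, fell by 1.22 and Twf1, a monomer-binding twinfilin, rose by 0.73 on the log2 scale. Exons of Irak4 on the opposite strand cover 12.9% of the Twf1 exon length. Vasp, which promotes filament elongation, rose by 0.22 with an adjusted p of 0.022, a call lost without sg-con replicate 2, sg-kiaa1522 replicate 1 or sg-kiaa1522 replicate 2 (adjusted p up to 0.079), and Raph1, the lamellipodin gene, fell by 0.49. Actb fell by 0.49, and the other cytoplasmic actin gene, Actg1, named after its values were seen, had an adjusted p of 0.24. Over all 81 tested genes of these lists, without the 10 members, 21 passed as higher, 25 as lower and 35 did not pass, with a median log2 fold change of -0.11, and these shares are near the 26.3% of all tested genes in each direction. Of these genes 4 passed the full threshold, which 7.08% of all tested genes did, Daam2, Diap3 and Tmsb10 as lower and Fmn1 as higher.

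**Figure D5:**
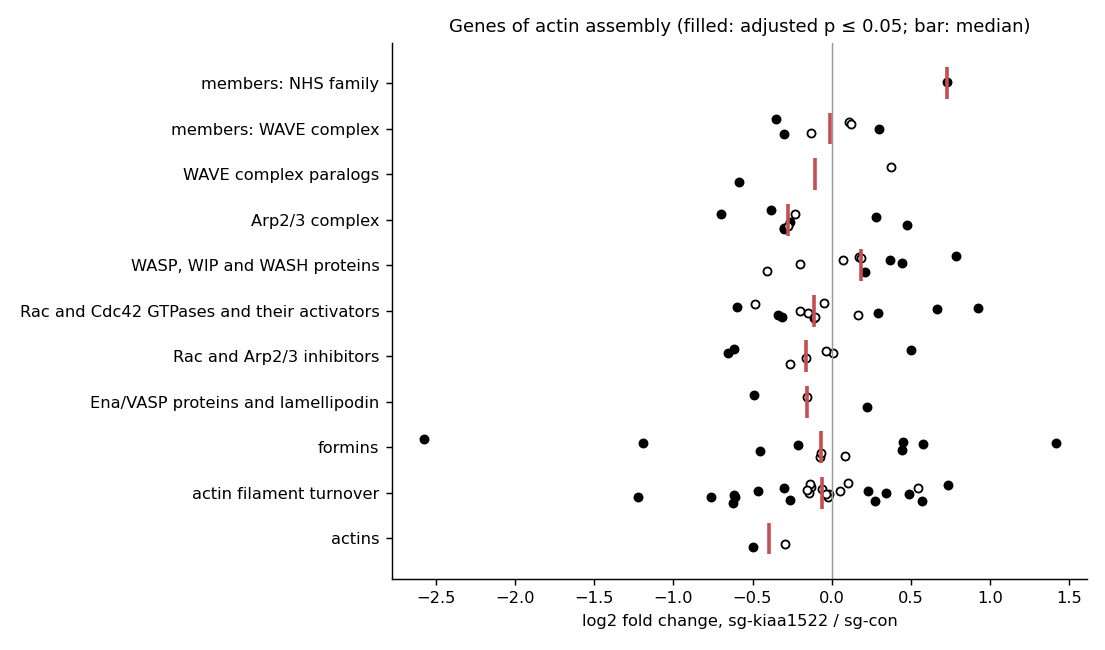
Log2 fold change of sg-kiaa1522 over sg-con (x axis) of each tested gene of the members and of the lists of actin assembly genes, filled where the adjusted p was at most 0.05 in edgeR's test, with the median of each list as a bar. The members of the WAVE complex lie between -0.35 and 0.30, and the Arp2/3 genes have a median of -0.27.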

How the data were processed

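RNA of 889 cells was sequenced in 3 sg-con and 3 sg-kiaa1522 libraries. The authors removed adaptors and rRNA reads with Seqtk, mapped the reads to GRCm38 with HISAT2 2.0.4 and counted uniquely mapped fragments with StringTie 1.3.0, and the deposited values are whole-number counts per gene without normalization. From these, TMM-scaled CPM and FPKM were computed, with positions and exon lengths from GENCODE annotation of GRCm38. Groups and replicate numbers came from the labels, and every column matched a library.

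The 10046 genes whose counts summed to more than 500 were tested with edgeR's quasi-likelihood test without covariates, with Benjamini-Hochberg adjustment over all of them. Shares and genes below the filter were compared with two-sided exact permutation tests, whose smallest p is 0.1. R 4.3.3, edgeR 4.0.16, limma 3.58.1 and DESeq2 1.42.0 were used. Tested on simulated data of this comparison with 10026 genes, the test recovered 99 of 99 genes changed by a log2 fold of 1 and 97 of 97 changed by 2, with 8 false calls. Recovery of changes smaller than a log2 fold of 1 was not tested. The log2 fold changes of all tested members were smaller than this in size.

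The members and gene lists were chosen with earlier results of these data known. Besides the members, the genes named are the largest rise and fall of each list among genes that passed the test, list genes past the full threshold, the WAVE paralogs, the neighbours of C77080, the 5 genes most like it, genes of the cell type marker lists, of which those given with values were picked after their values were seen, and those marked so in the text. The alternatives were DESeq2, RLE and library-size scaling, other count filters, a replicate block, each library left out, a stricter adjusted p and another gene length.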

Additional observations from a re-analysis of the deposited data

How the results depend on the processing

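With a replicate block the number of members higher in sg-kiaa1522 was 1 instead of 2, because the adjusted p of Wasf2 was 0.061, and 2 members stayed lower. With the block the calls of Abi3 (adjusted p 0.075) and Vasp (0.086) were also lost, and 1 Arp2/3 gene was higher, as with scaling by library size alone. Same-numbered libraries had correlations of -0.23, -0.05 and -0.17 in their deviations from the group means, and no library correlated best with its own number. Over all tested genes the replicate numbers thus showed no pairing of the libraries. A batch shared by fewer genes was not tested. At an adjusted p of at most 0.01, 1 member was lower and 1 was higher.

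Leaving out each library gave between 1 and 2 members lower and between 1 and 3 higher, between 3 and 6 Arp2/3 genes lower and between 1 and 2 higher. The log2 fold change of Abi1 then lay between -0.12 and 0.28, and turned to -0.12 and -0.07 in the 2 settings given for it. The difference of mean CPM of Nhsl1, sg-kiaa1522 minus sg-con, lay between -0.435 and 0.286, with a turn to 0.237 without sg-con replicate 2. The same difference in the Cyfip1 share lay between -0.0833 and 0.0868 percentage points, with 0.0168 without sg-con replicate 3. The cause was not tested. Without sg-con replicate 2, Abi3 was below the count filter and has no value.

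With every gene of at least 1 count, 941 genes were lower and 767 higher at the full threshold, Nhs among the lower as 1 member, against 436 and 275 in the fit reported. With edgeR's own filter the numbers were 812 and 607. These settings test more genes. Scaling by RLE or library size kept the direction of all 10 members, and these scalings and DESeq2 kept the direction and side of the threshold of the 7 tested members. The depth limits Nhs and Nhsl2, whose counts were near or under the floor of 3 counts. The same alternatives for the pathway lists and the other named genes were chosen after seeing the data.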
